A study of Homo sapiens with 30 samples.

Results

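Divergent gene pairs are neighbouring genes on opposite strands that are transcribed away from each other out of a shared stretch of DNA. Pairs of protein-coding genes of this kind were taken from the GENCODE release 44 annotation on GRCh37, with starts of basic transcripts (the annotation's set of representative transcripts) at most 1000 bp apart. The region of a pair ran from 500 bp beyond the start of the gene on the minus strand to 500 bp beyond the start of the gene on the plus strand. The rule gave 1335 gene pairs, and 97 of them overlapped another pair and were counted with it, which left 1238 regions that are called pairs here. They held 2552 of 20098 protein-coding genes on chromosomes 1 to 22 and X. Starts lay 1 to 997 bp apart with a median of 136 bp, and 453 pairs had starts at most 100 bp apart. Pairs were compared with 16076 single promoters, and 1470 promoters met neither definition. A single promoter is the 5'-most start of a protein-coding gene with no start of another protein-coding gene within 2000 bp of any of its starts. Pairs were placed at their closest starts instead, so summits at other starts of a single gene could be missed. A single promoter region reached 636 bp upstream and 500 bp downstream, which made it as wide as the median pair region (1136 bp).

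The study mapped proteins and histone marks by ChIP-Seq, the sequencing of DNA recovered with an antibody from fixed chromatin. The cells were MDA-MB-231, an established triple-negative breast cancer cell line, and the questions were where the SIN3 complex sits and what its subunit SAP30 does at promoters. Of 30 samples, 18 immunoprecipitated libraries had lists of peaks and were used here, in 9 groups of 2 replicates, and 12 (the inputs and the total histone H3 libraries) were not analysed here. SAP30, SIN3A and SIN3B were mapped in parental MDA-MB-231 cells, and Pol II, H3K4me3 and H3K9Ac were mapped in parental and in SAP30-KO1 cells. The labels name an input for SAP30 and SIN3A and a separate input for SIN3B. A difference of SIN3B from SAP30 and SIN3A thus cannot be told apart from a difference between these sets of libraries. SAP30-KO1 is an MDA-MB-231 line in which SAP30 was knocked out with 1 CRISPR/Cas9 guide RNA, and the line was assembled by mixing several knockout clones. All cells were grown in DMEM with serum, and the labels name no treatment. The labels do not say whether replicates were separate cultures, so p-values measure only the spread between these libraries.

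A divergent promoter has core promoter elements facing opposite ways, and the DNA between them is usually a nucleosome-poor, CpG-rich stretch from which transcription leaves in both directions. Such pairs are common in the human genome and are well known among DNA repair, mitochondrial and other housekeeping genes. The SIN3 complex is built on the scaffold proteins SIN3A or SIN3B and holds the histone deacetylases HDAC1 and HDAC2, and SAP30 is one of its core subunits. Histone H3 trimethylated at lysine 4 (H3K4me3) marks the nucleosomes just downstream of active starts, H3 acetylated at lysine 9 (H3K9Ac) marks active promoters, and RNA polymerase II (Pol II) collects just downstream of the start before it is released into the gene.

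The stretches between the starts of 6 pairs are shown because they are the DNA that both genes share and because the SIN3 proteins were placed differently on them. They were read from GRCh37, plus strand, 5′ to 3′, and hold no annotated exon. The gene on the minus strand begins just before the first base and the gene on the plus strand just after the last base. Capitals mark letters of the searched motifs on either strand, which are CCAAT, the GC box GGGCGG and the ETS motif CCGGAAGT.
ZAR1L/BRCA2, chr13:32889501-32889641: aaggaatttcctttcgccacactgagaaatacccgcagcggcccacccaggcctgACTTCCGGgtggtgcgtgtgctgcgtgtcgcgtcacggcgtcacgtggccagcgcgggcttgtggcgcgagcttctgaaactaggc
TMEM258/FEN1, chr11:61560275-61560382: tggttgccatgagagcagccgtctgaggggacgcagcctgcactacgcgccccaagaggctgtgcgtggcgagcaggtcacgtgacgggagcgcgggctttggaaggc
COL4A1/COL4A2, chr13:110959505-110959604: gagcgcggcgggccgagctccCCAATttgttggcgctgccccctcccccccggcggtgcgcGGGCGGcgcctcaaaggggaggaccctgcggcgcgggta
PPAT/PAICS, chr4:57301782-57301906: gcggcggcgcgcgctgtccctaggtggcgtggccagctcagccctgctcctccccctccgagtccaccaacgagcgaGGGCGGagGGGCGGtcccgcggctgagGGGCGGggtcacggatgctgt
SARS2/MRPS12, chr19:39421404-39421583: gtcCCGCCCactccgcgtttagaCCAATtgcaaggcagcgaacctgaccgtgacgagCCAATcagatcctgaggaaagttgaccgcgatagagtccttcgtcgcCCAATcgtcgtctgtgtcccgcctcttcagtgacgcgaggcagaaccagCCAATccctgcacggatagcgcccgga
PPP1R13L/POLR1G, chr19:45909608-45909901: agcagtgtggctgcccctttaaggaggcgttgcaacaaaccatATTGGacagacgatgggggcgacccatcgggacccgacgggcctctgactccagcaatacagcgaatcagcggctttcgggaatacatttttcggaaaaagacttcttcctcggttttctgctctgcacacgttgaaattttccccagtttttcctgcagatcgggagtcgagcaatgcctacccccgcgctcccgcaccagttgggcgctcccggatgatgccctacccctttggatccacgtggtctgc

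Summits could be set against these letters at each pair, counting base pairs from the start of the minus-strand gene. At ZAR1L/BRCA2, whose plus-strand gene BRCA2 is needed for homologous recombination, SIN3A summits lay at 131 and 117 bp, inside the stretch and downstream of its single ETS motif. The SAP30 summits there lay at 167 and 152 bp, just past the BRCA2 start at 142 bp. At TMEM258/FEN1, where FEN1 is the flap endonuclease of DNA replication, SAP30 summits lay 41 and 48 bp past the FEN1 start, while SIN3B summits lay 53 and 67 bp past the TMEM258 start on the other side. At COL4A1/COL4A2, which encode the chains of the main type IV collagen of basement membranes, SIN3A summits lay at 98 and 94 bp and Pol II summits at 35 and 16 bp, all inside the 100-bp stretch. At PPAT/PAICS, both of them genes of purine synthesis and with 3 GC boxes between them, neither SAP30 library had a summit in the region, while SIN3B summits lay 144 and 208 bp into PPAT. At SARS2/MRPS12, whose genes serve mitochondrial translation, SAP30 summits lay 105 and 34 bp past the MRPS12 start and the SIN3B summits lay on opposite sides in the 2 libraries. At PPP1R13L/POLR1G, the longest stretch shown (294 bp), SIN3A summits lay 17 and 7 bp past the start of POLR1G, a subunit of RNA polymerase I, and SIN3B summits lay inside the stretch at 179 and 153 bp.

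Each list held 10861 to 54622 summits, 1 per MACS2 peak, and within a group 76.07% to 93.85% of summits lay at most 1000 bp from one in the second library. The number of reads behind each list is unknown, and the lists give no peak widths. An absent summit means only that no peak that passed the threshold in that list had its summit in the region. A peak with its summit just outside may still reach into the region. Each library pools many cells, so fewer cells with a peak and less binding per cell cannot be told apart. Among genes known for this mesenchymal-like line, VIM, CD44, AXL, CAV1 and ZEB1 had Pol II, H3K4me3 and H3K9Ac summits at their promoters in all 6 parental libraries. Of 5 genes of luminal cells, ESR1 and GATA3 had none, CDH1 had H3K4me3 summits alone and FOXA1 had H3K4me3 in 1 library. ERBB3 went the other way, with H3K4me3 and H3K9Ac in all 4 parental libraries and Pol II in 1 of 2. No SAP30 library of SAP30-KO1 cells was analysed here, so loss of the protein could not be checked in these lists. The percent rank used below is a summit's place in its own list, from 0 for the best score to 100 for the lowest.

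Divergent pairs carried SIN3 complex peaks more often than single promoters did in every library. SAP30 summits lay in 1071 and 1079 pairs (86.5% and 87.2%) and in 47.3% and 47.2% of single promoters. SIN3A summits lay in 70.7% and 67.8% of pairs and in 27.8% and 27.0% of single promoters. SIN3B summits lay in 87.0% and 85.4% of pairs and in 41.9% and 40.5% of single promoters. The differences were 39.6 ± 0.549 points for SAP30, 41.8 ± 1.50 points for SIN3A and 45.0 ± 0.197 points for SIN3B (mean ± SD, n = 2), each far larger than the spread between replicates. By an exact two-sided sign-flip permutation test over the libraries p = 0.5 for each, the smallest value that 2 libraries allow.

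The marks of active promoters were distributed the same way. Pol II summits lay in 88.9% ± 0.0571 of pairs in the parental line and 88.5% ± 1.09 after knockout (SD, n = 2), against 47.3% and 45.1% of single promoters. H3K4me3 summits lay in 84.0% ± 0.628 and 83.8% ± 1.43 of pairs, against 47.6% and 47.0%. H3K9Ac summits lay in 83.6% ± 0.743 and 83.5% ± 0.571 of pairs, against 46.7% and 46.9%. In no group did the libraries' ranges for pairs and single promoters overlap, and the exact sign-flip permutation test gave p = 0.5, the smallest possible, in all 6 groups.

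**Figure D1:**
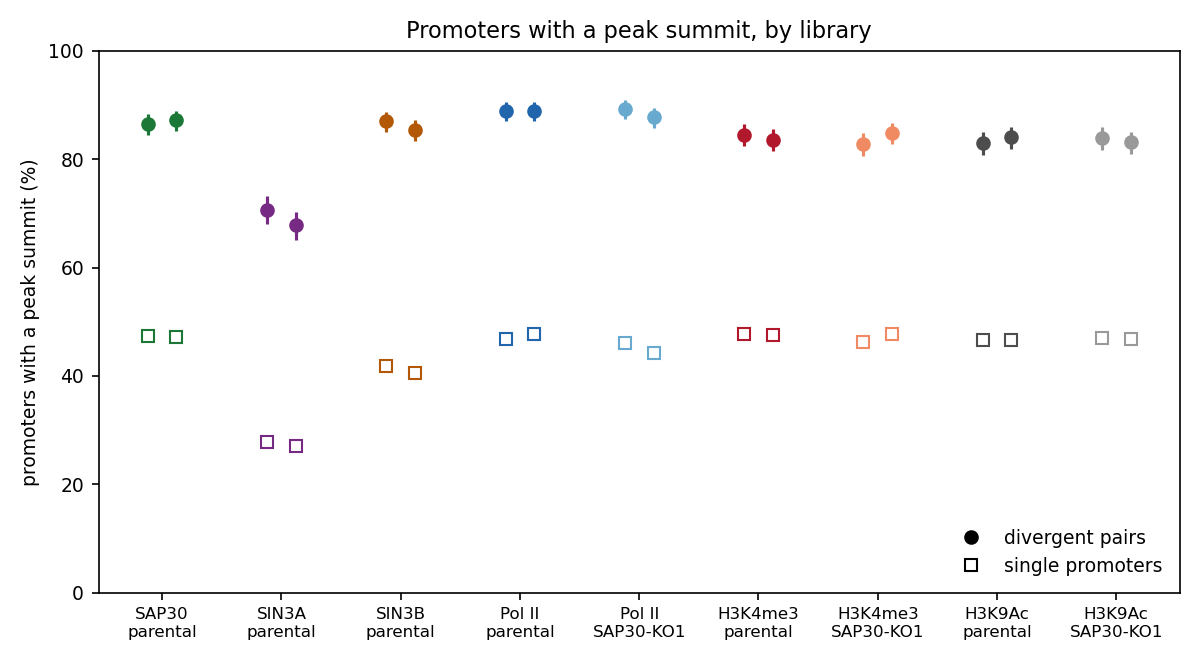
Percent of promoters (y axis) with at least 1 peak summit in each of the 18 libraries, by group (x axis). Filled circles are the 1238 divergent pairs and open squares the 16076 single promoters, and bars are 95% Wilson intervals that cover counting error only. All pair values lie between 67.8% and 89.3%, and all single promoter values lie between 27.0% and 47.7%.

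Most pairs were seen in both libraries of a group. Summits in both libraries were found at 1045 pairs for SAP30 (84.4%, where 47.3% of all 18784 promoters qualified), at 745 for SIN3A (60.2%, against 24.3%) and at 1032 for SIN3B (83.4%, against 40.7%). The counts were 1080 for Pol II in parental cells (87.2%, against 48.8%) and 1068 in SAP30-KO1 cells (86.3%, against 46.2%). They were 1003 and 995 for H3K4me3 (81.0% and 80.4%, against 48.2% and 47.6%) and 988 and 991 for H3K9Ac (79.8% and 80.0%, against 46.0% and 46.4%). SAP30, SIN3A and SIN3B were all present at 677 pairs (54.7%) and at 17.5% of single promoters. Another 282 pairs had SAP30 and SIN3B without SIN3A in both libraries, and 59 had SAP30 alone. None of the 6 parental groups had a summit in both libraries at 79 pairs (6.38%), against 45.0% of single promoters.

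Single promoters include many silent genes, so the comparison was repeated among promoters with an H3K4me3 summit in both parental libraries. SAP30 was then present in both libraries at 93.0% of 1003 pairs and 84.6% of 7293 single promoters, and Pol II at 93.8% and 84.5%. In points the gap stayed wider for the scaffolds, with SIN3A at 65.2% of pairs and 39.8% of single promoters and SIN3B at 90.2% and 68.8%. The single promoter shares of SAP30 and Pol II were already high, which limits their gaps in points. H3K9Ac was present at 91.7% and 85.2%. A pair region also holds 2 starts. Of 2 independent single promoters, taken from all 16076, at least 1 would have a SAP30 summit in 72.3% and 72.1% of cases. The values would be 47.9% and 46.7% for SIN3A and 66.2% and 64.7% for SIN3B, each below the share of all pairs. These values include silent genes, as 45.0% of single promoters had none of the 6 parental groups. They were not computed among promoters with H3K4me3, where the single shares are higher. They thus do not show that pairs with H3K4me3 exceed 2 such starts. Whether the 2 starts of a pair carry summits independently was not tested, nor was the part of the second start in the differences. Single promoters with a long noncoding RNA start within 1000 bp were intermediate: 68.6% and 69.0% of these 2598 had a SAP30 summit, against 43.2% and 43.0% of the other 13478, and 46.1% and 44.9% had a SIN3A summit, against 24.3% and 23.6%.

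Summits at pairs also stood higher in their lists. The median percent rank of the best SIN3B summit was 9.97 at pairs and 26.1 at single promoters, that of SAP30 11.2 and 19.6, and that of SIN3A 31.6 and 40.8 (means of 2 libraries). The median ranks of H3K4me3 were 20.3 at pairs and 27.9 at single promoters in parental cells, those of Pol II 23.1 and 27.7 and those of H3K9Ac 10.6 and 14.2. The difference had the same sign in all 18 libraries, and the exact sign-flip permutation test again gave its smallest p of 0.5 in every group. In SAP30-KO1 cells the Pol II difference turned to 1.04 when only the better-scored 50% of each list was kept and to 1.11 when lists were cut to the shortest length.

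The share of pairs with a peak changed little with the distance between the starts. SAP30 summits lay in 87.4% and 88.5% of pairs with starts 1 to 100 bp apart and in 82.4% and 84.9% of those 501 to 1000 bp apart. SIN3A summits lay in 71.1% and 68.2% of the closest and in 68.9% and 63.0% of the farthest pairs. On the inner side of the distance limit, 46 pairs had starts 751 to 1000 bp apart, and 84.8% and 89.1% of them had a SAP30 summit. On the outer side, 26 pairs 1001 to 1250 bp apart that are not members had one in 80.8% in each library.

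The place of the best summit differed between proteins. Positions were counted from the closest starts of the 2 genes. At 351 of 1238 pairs alternative starts of the 2 genes overlapped, so position and side there depend on the starts chosen. The median best Pol II summit in parental cells lay 65 and 63 bp past the nearer start, inside the gene on that side. SAP30 summits lay a median of 111 and 105 bp past the nearer start and SIN3A summits 95 and 80 bp. H3K4me3 summits lay farther out at 218 and 223 bp and H3K9Ac summits at 260 and 247 bp. The order Pol II, SIN3A, SAP30, H3K4me3 and H3K9Ac was the same in replicates 1 and 2. Single promoters had the same order, so it was not particular to pairs. Their medians downstream of the start were 49 and 49 bp for Pol II, 100 and 90 bp for SIN3A and 108 and 97 bp for SAP30. For H3K4me3 they were 213 and 221 bp and for H3K9Ac 236 and 233 bp. The SIN3B libraries disagreed at pairs, with medians of 55 and 93 bp, and at single promoters, with 38 and 85 bp. SIN3B thus had no firm place in this order.

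Over all distances, best summits of SAP30, Pol II, H3K4me3 and H3K9Ac lay between the starts less often than an even spread would give. That stretch took up about 15% of the region. For SAP30 8.78% and 10.0% of best summits lay between the starts, where 15.3% would if summits were spread evenly. For Pol II the values were 11.2% and 11.3%, for H3K4me3 1.91% and 1.35% and for H3K9Ac 2.33% and 2.79%. For SIN3A 14.7% and 15.1% lay there, close to its even shares of 15.3% and 15.1%. For SIN3B 28.2% of best summits lay between the starts in replicate 1 and 13.2% in replicate 2, so the libraries fell on opposite sides of the even share. In single promoters a stretch of fixed length upstream of the start, 136 bp as in the median pair, was used instead. It held 10.1% and 11.7% of best SAP30 summits, 12.7% of Pol II summits in each library, and 21.5% and 10.4% of SIN3B summits. Over all distances, SAP30 and Pol II summits lay between the starts of pairs less often than upstream of single starts in both libraries, and SIN3A and SIN3B summits more often (p = 0.5 for each, exact sign-flip permutation test, the smallest possible). With every list cut to the length of the shortest, the SAP30 difference was 0.0760 points and no longer negative. A pair has a transcribed side at each end and a single promoter at 1 end only, and its effect on these shares was not tested. The stretches of pairs ran from 1 to 997 bp and that of single promoters did not vary. The shares are thus not matched for length, and the part of this in the differences was not tested.

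The shares changed with the distance between the starts. At 1 to 100 bp best Pol II summits lay between the starts at 8.68% and 11.0% of pairs, more often than the 6.29% and 6.48% of single promoters. SAP30 summits in these closest pairs did so at 6.31% and 8.73%, against 5.40% and 7.01%, so both proteins went against their direction over all distances. An even spread at 1 to 100 bp would give 5.24% to 5.26% for both, below these values at pairs. SIN3A summits lay there at 11.5% and 9.71%, above its even shares of 5.28% and 5.33%. In pairs with starts 201 to 300 bp apart, 7.50% and 5.56% of best Pol II summits lay between the starts, against 19.4% and 19.5% in the matching upstream stretch of single promoters. For SAP30 the values in these pairs were 7.05% and 7.79%, against 14.5% and 16.7%. For SIN3B they were 43.1% and 24.5%, against 30.5% and 18.4%, higher at pairs in both libraries. At 1 to 200 bp SIN3B replicate 2 was lower at pairs, with 3.55% against 3.93% up to 100 bp and 8.42% against 10.6% beyond. SIN3A was lower at pairs in both libraries at 301 to 500 bp, with 17.0% and 17.2% against 20.1% and 21.6%. At 501 to 1000 bp SIN3B reached 53.1% and 34.0%, while SAP30 reached 17.3% and 24.8% and H3K4me3 14.9% and 9.18%.

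**Figure D2:**
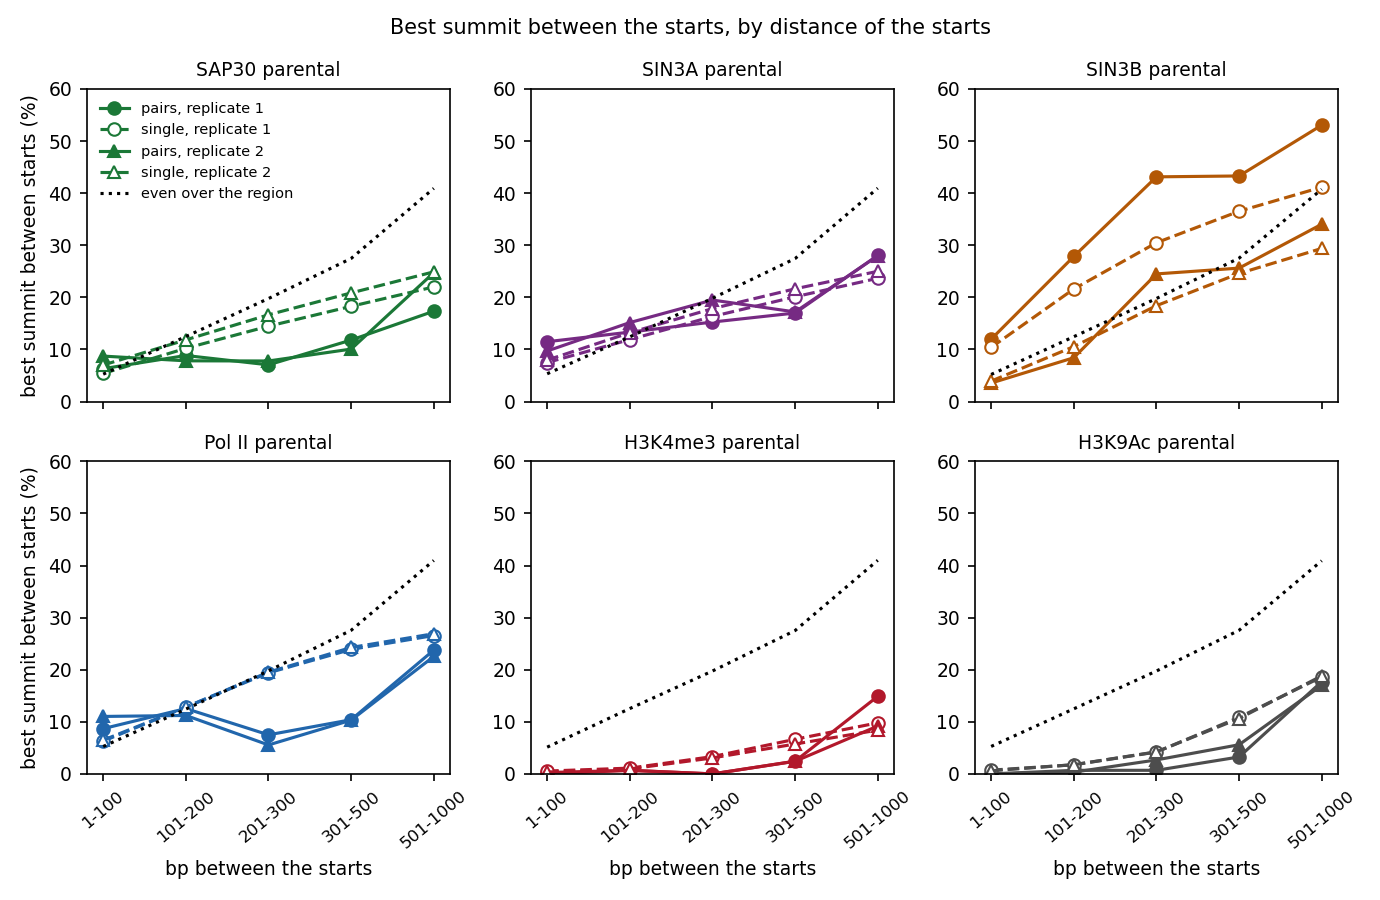
Percent of regions with a summit whose best-scored summit lay between the starts (y axis), by base pairs between the starts of the pair (x axis), for parental groups. Filled symbols are pairs, open symbols the upstream stretch of equal median length at single promoters, circles replicate 1, triangles replicate 2, and the dotted line is the share if summits were spread evenly over the region. SIN3B replicate 1 runs above the even share and H3K4me3 and H3K9Ac run below it at all distances.

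The side of the pair on which the best summit lay was mostly shared between replicates. The best SAP30 summits of both libraries lay on the same side of the midpoint at 86.5% of pairs that had both, and those of SIN3A at 74.3% and SIN3B at 73.4%. SAP30 and SIN3A libraries agreed at 79.2% to 81.2% of pairs, with their summits a median of 65 to 70 bp apart. SAP30 and SIN3B libraries agreed at only 59.9% to 65.1%, with summits 126 to 150 bp apart. The SIN3A replicates agreed less often with each other than with SAP30, and their summits lay a median of 82 bp apart. By the labels SIN3B had an input of its own, so protein and set of libraries cannot be told apart here. Parental Pol II replicates agreed at 81.8% and parental H3K4me3 replicates at 88.8%, while Pol II and H3K4me3 shared a side at 62.7% to 65.0%. Summits on both sides of the midpoint in one library were most frequent for H3K9Ac and SIN3A among the parental groups at 201 to 300 bp. They were found there at 47.6% and 50.3% of pairs with H3K9Ac and at 42.0% and 39.0% of pairs with SIN3A. The values were 24.0% and 10.6% for H3K4me3 and 4.49% and 11.7% for SAP30.

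The DNA of pairs was CpG-rich, and SAP30 and SIN3A peaks were more frequent at pairs in each class of CpG content. The ratio of observed to expected CpG over 1001 bp had a median of 0.782 at pairs and 0.680 at single promoters, with quartiles of 0.703 and 0.864 at pairs and 0.309 and 0.818 at single promoters. Among promoters with H3K4me3 the medians were 0.787 and 0.786. In the middle of 5 equal CpG classes, SAP30 was present in both libraries at 86.1% of 366 pairs and 63.5% of 3096 single promoters, and SIN3A at 54.6% and 27.2%. In the highest class, SAP30 was present at 88.4% of 361 pairs and 70.4% of 3103 single promoters, and SIN3A at 71.7% and 41.5%. The lowest class held only 24 pairs, of which 8.33% had SAP30 and 4.17% each had SIN3A and H3K9Ac, against 2.88%, 0.116% and 3.93% of single promoters. With single promoters weighted by CpG class, the surplus of pairs was 19.1 points for SAP30, 27.9 for SIN3A, 26.1 for SIN3B and 15.4 for parental H3K4me3. Pairs with SIN3A had a higher median ratio (0.807) than the 349 pairs with H3K4me3 but without SIN3A in both libraries (0.753).

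Motif letters were counted on both strands in 301 bp around the middle of each pair, and in the matching window upstream of single starts. The ETS motif CCGGAAGT was found at 166 pairs (13.4%) and at 4.39% of single promoters, and at 15.0% and 8.28% of those with H3K4me3. The YY1 letters AAGATGGCG were found at 4.36% of pairs and 2.19% of single promoters, and the NRF1 motif at 3.31% and 1.37%. Among those with H3K4me3 the values were 4.79% and 4.13% for YY1 and 3.39% and 2.28% for NRF1. The GC box GGGCGG was found at 72.8% of pairs and 55.2% of single promoters, but at 74.9% and 78.1% of those with H3K4me3. The TATA box letters TATAAA were rarer at pairs, at 3.88% against 10.5%, and at 3.49% against 4.09% among those with H3K4me3. CCAAT was found at 37.4% and 34.4%. The ETS motif was present at 16.1% of pairs with SIN3A and at 9.33% of pairs without it in both libraries, which is a count of letters and says nothing of which factor was bound.

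Of 22 divergent pairs well known from textbooks, 20 were members, and 18 of them had SAP30 in both libraries, 14 SIN3A, 16 SIN3B and 17 parental Pol II, where the shares over all pairs were 84.4%, 60.2%, 83.4% and 87.2%. UNG/ALKBH2 and DPY30/MEMO1 did not meet the rule. Several pairs of DNA repair and replication genes stood high in the SAP30 lists. At ZAR1L/BRCA2 the SAP30 summits ranked at 0.377% and 0.647% of their lists, while the SIN3B summits ranked at 58.7% and 47.0%. At TMEM258/FEN1 SAP30 ranked at 1.17% and 3.31% and SIN3B at 1.56% and 5.10%. At TK1/AFMID, with the thymidine kinase of DNA synthesis, SAP30 ranked at 1.95% and 3.50% but the SIN3A libraries were far apart, at 3.15% and 94.3%.

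Other textbook pairs differed in the side or the region that was bound. At NPAT/ATM, with the kinase ATM that signals DNA breaks, SIN3B summits lay 151 and 37 bp into NPAT, a coactivator of histone genes. The Pol II summits of parental cells lay 77 and 71 bp into ATM. At SIRT3/PSMD13, a mitochondrial deacetylase and a proteasome subunit, SIN3B ranked at 0.988% and 1.74% and Pol II was absent from both parental libraries and present in both SAP30-KO1 libraries. The nearest parental Pol II summits at SIRT3/PSMD13 lay 70 and 37 bp outside the region, so parental Pol II was present next to it.

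Mitochondrial and metabolic pairs included both strongly and weakly marked ones. At HSPD1/HSPE1, the mitochondrial chaperonin and its cofactor, SAP30 ranked at 3.63% and 3.78%, SIN3A at 3.95% and 5.25% and parental Pol II at 2.55% and 6.36%. None of the 4 H3K4me3 libraries had a summit within 500 bp beyond the HSPD1/HSPE1 starts. At SURF1/SURF2, where SURF1 assembles cytochrome c oxidase, Pol II ranked at 3.29% and 3.09% and SIN3B at 5.18% and 2.87%. At TRMT2A/RANBP1, where RANBP1 regulates the GTPase Ran of nuclear transport, SIN3B ranked at 1.88% and 1.41%, in contrast to Pol II at 57.1% and 41.2%. At TAP1/PSMB9, the peptide transporter and an immunoproteasome subunit of antigen presentation, SAP30 summits ranked at 10.0% and 3.97% and lay between the starts, as did both SIN3A summits.

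The 3 type IV collagen pairs differed in this line. COL4A1/COL4A2 had summits in all 18 libraries, with SAP30 at ranks of 5.06% and 7.20%. COL4A4/COL4A3 had SAP30 summits at 85.5% and 55.8% of the lists, H3K4me3 summits near 49.0% and 48.7%, and no SIN3A, SIN3B or Pol II summit in any library. COL4A6/COL4A5 had H3K4me3 and H3K9Ac summits in all libraries of both genotypes and no summit of SAP30, SIN3A, SIN3B or Pol II.

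**Figure D3:**
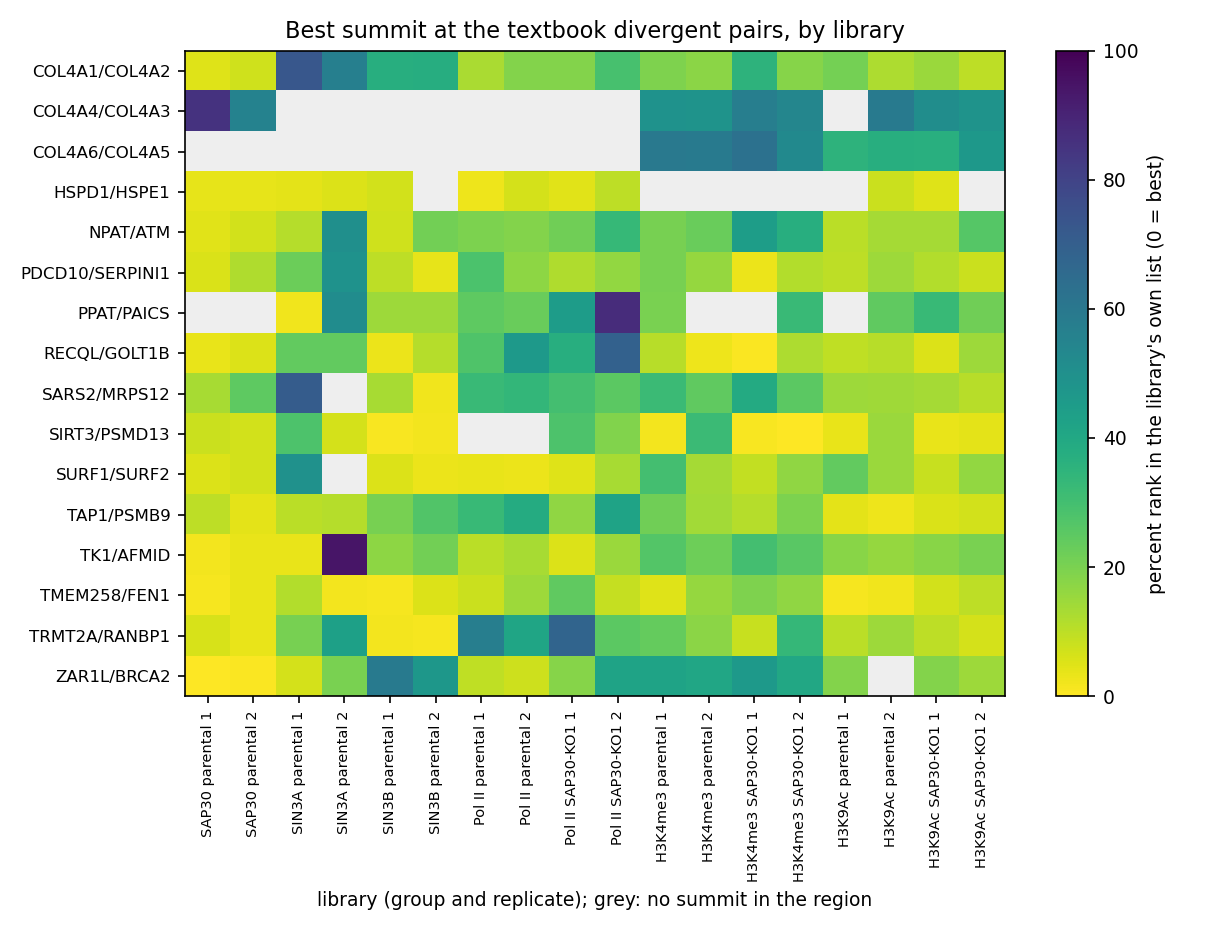
Percent rank of the best summit (colour, 0 is the best score of a list) at 16 of the textbook pairs that are members (rows) in each of the 18 libraries (columns), with grey where the region held no summit. COL4A6/COL4A5 is grey in all SAP30, SIN3A, SIN3B and Pol II libraries, and ZAR1L/BRCA2 has the best SAP30 ranks of these pairs, 0.377 and 0.647.

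The best ranked pairs of SAP30 and SIN3A had 1 member in common, and those of SIN3B had none in common with them. NOL8/CENPP, with a nucleolar and a centromere protein, was among the best 3 of SAP30 and of SIN3A, with SAP30 at 0.0371% and 0.00857% and SIN3A at 0.0360% and 0.0967%. BOP1/HSF1, with a ribosome biogenesis factor and the heat shock transcription factor, led for SAP30 at 0.00286% and 0.0229% and had SIN3A at 0.0900% and 0.285%. CRNKL1/CFAP61, with a splicing factor, had SAP30 at 0.0400% and 0.0257% and SIN3A at 0.0450% and 0.861%. In each of these 3 pairs SAP30 and SIN3A summits lay on the same side in all 4 libraries, and SIN3B summits lay on the opposite side in both. PPP1R13L/POLR1G and KIF9/KLHL18 completed the SIN3A list, and PPP1R13L/POLR1G had no H3K4me3 or H3K9Ac summit in any of 8 libraries within its region. SIN3B was best at SUPT7L/SLC4A1AP (0.0190% and 0%), DZANK1/POLR3F (0.0152% and 0.0538%) and MRPL13/MTBP (0.0228% and 0.00897%). At SUPT7L/SLC4A1AP SAP30 ranked at only 30.2% and 17.0%, and SIN3A had a summit in 1 of 2 libraries.

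Gene families differed in how often they formed pairs and in which proteins the pairs carried. Of 134 DNA repair and replication genes 57 (42.5%) were in pairs, and 50 of their 55 pairs had SAP30 in both libraries (90.9%), 44 SIN3A (80.0%) and 51 SIN3B (92.7%). Of 78 mitochondrial ribosomal protein genes 28 were in 27 pairs, and all 27 had SAP30 and 26 had SIN3B, but 15 had SIN3A (55.6%). Of 105 oxidative phosphorylation subunits 36 were in 37 pairs, with SAP30 and SIN3B at 34 each and SIN3A at 23. Of 48 proteasome genes 12 were in 13 pairs, all with SAP30, 10 with SIN3A and 9 with SIN3B. Of 84 cytosolic ribosomal protein genes 16 were in 16 pairs, all with SIN3B and Pol II and 13 with SIN3A. The shares over all pairs were 84.4%, 60.2% and 83.4% for SAP30, SIN3A and SIN3B.

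Among histone pairs the shares with SAP30, SIN3A and SIN3B lay below those over all pairs. The 22 histone genes in pairs formed 11 pairs among themselves, with SAP30 at 6, SIN3B at 5, SIN3A at 0 and parental Pol II at 8. Histone genes are near-identical copies whose reads can map to several places, so their calls are uncertain. Of 558 C2H2 zinc finger genes 57 were in 45 pairs, of which 38 had SAP30, 38 SIN3B (84.4% each) and 19 SIN3A (42.2%), so their shares of SAP30 and SIN3B were near those over all pairs. Of 543 olfactory and taste receptor, keratin and protocadherin genes 2 were in a pair, which had no summit in both libraries of any group. Of 34 genes of the SIN3 complex and of COMPASS, the H3K4 methyltransferase family, 4 were in pairs: RBBP4, ARID4B, KDM5A and HCFC1, and SAP30 was present at all 4 pairs, SIN3A at 3 and SIN3B at 2. None of 9 genes that the study followed singly was in a pair.

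**Figure D4:**
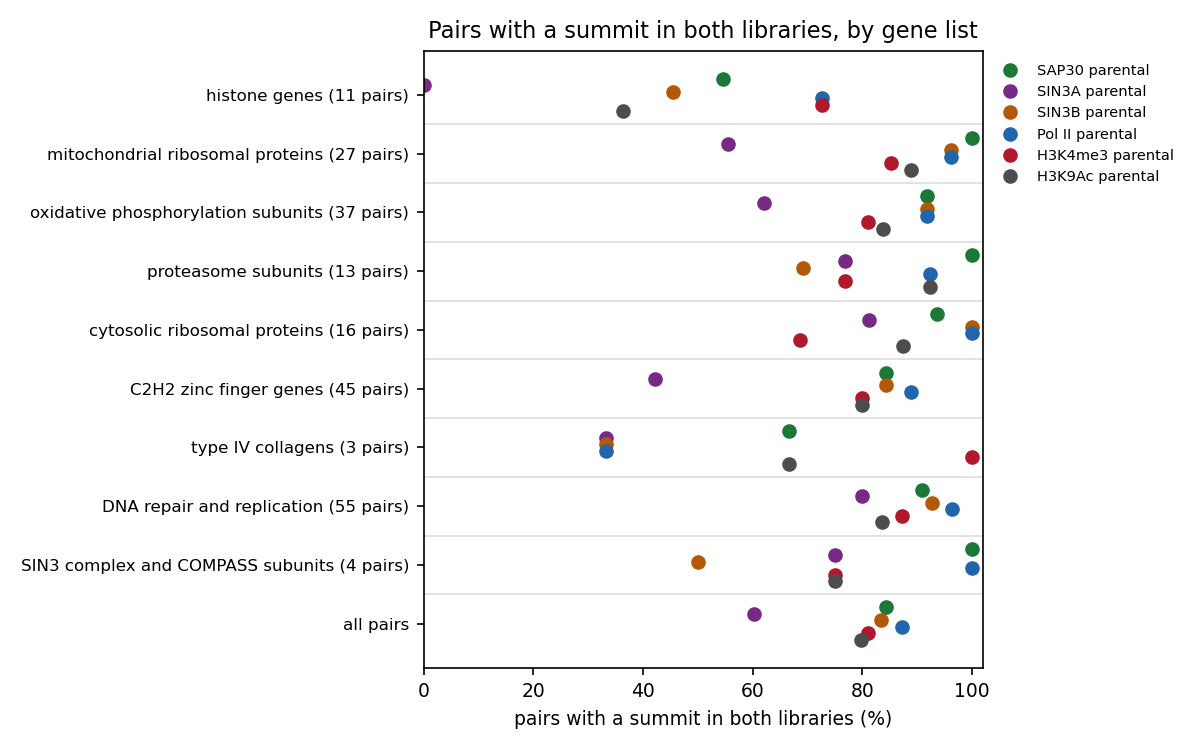
Percent of pairs with a summit in both libraries of a parental group (x axis), by gene list (y axis, with the number of pairs), 1 coloured point per group, with all 1238 pairs in the last row. SIN3A lies at 0% at histone genes and at 42.2% at C2H2 zinc finger genes and reaches 80.0% at DNA repair and replication genes and 81.2% at cytosolic ribosomal protein genes, where 60.2% is the value over all pairs.

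In the full lists nearly the same share of pairs carried Pol II, H3K4me3 or H3K9Ac in parental and SAP30-KO1 cells. The share of pairs with a summit was 88.9% and 88.9% in parental and 89.3% and 87.7% in SAP30-KO1 libraries for Pol II, a difference of -0.404 points. It differed by -0.242 points for H3K4me3 and by -0.0404 points for H3K9Ac, and each difference was smaller than the spread between replicates of the SAP30-KO1 cells (p = 1 for each, exact two-sided permutation test of 2 against 2 libraries). That design cannot give a p under 0.333. Keeping only summits up to 250 bp beyond each start turned the Pol II difference to 1.86 points and the H3K4me3 difference to 1.41 points. With all lists limited to the shortest length the Pol II difference was -6.10 points (p = 0.333, exact permutation test), and with the better-scored 50% of each list it was -4.97 points.

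Lost pairs are those with a summit in each parental library but in none of the knockout, and gained pairs the converse. Pol II was lost at 7 of 1080 pairs (0.648%, where 2.74% of all promoters lost it), H3K4me3 at 16 of 1003 (1.60%, against 2.10%) and H3K9Ac at 8 of 988 (0.810%, against 1.60%). Pol II was gained at 8 of 117 pairs (6.84%, against 1.10% of all promoters), H3K4me3 at 10 of 160 (6.25%, against 0.950%) and H3K9Ac at 9 of 157 (5.73%, against 1.56%). Most gained pairs had parental summits just beyond the region: a parental library had a summit at most 500 bp outside it at 7 of the 8 Pol II pairs, 8 of the 10 H3K4me3 pairs and all 9 H3K9Ac pairs. With 1000 bp beyond each start the gains numbered 1, 2 and 3. Losses of Pol II were of another kind: at 6 of 7 pairs no SAP30-KO1 library had a Pol II summit within 500 bp outside the region. For H3K4me3 and H3K9Ac this was so at 7 of 16 and 2 of 8 pairs.

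The lost Pol II pairs mostly stood in the lower part of the parental lists. A loss concerns only the region at the closest starts, and Pol II at other starts of these genes was not examined. At MEX3A/LMNA, where LMNA encodes lamins A and C of the nuclear envelope, parental Pol II summits ranked at 78.1% and 49.8%, and the nearest SAP30-KO1 summits lay 13798 and 23391 bp outside the region. At STAT5B/STAT5A, paired transcription factors of cytokine signalling, they ranked at 82.4% and 55.4%, with the nearest SAP30-KO1 summits 11431 and 11446 bp outside. At LYSMD2/TMOD2 they ranked at 66.4% and 83.1%, with the nearest 13390 and 13373 bp outside. All 3 pairs had H3K4me3 in both SAP30-KO1 libraries. The other 4 lost pairs were HES2/ESPN, BRCA1/NBR1, SMC1B/RIBC2 and LMBRD1/COL19A1, named after their values were seen. HES2/ESPN ranked at 88.7% and 72.4%, SMC1B/RIBC2 at 87.2% and 63.6% and LMBRD1/COL19A1 at 84.1% and 78.0%. At BRCA1/NBR1, where BRCA1 acts in homologous recombination, parental Pol II ranked at 74.0% and 89.4%, and a SAP30-KO1 summit lay 318 bp outside the region in replicate 2. The SAP30-KO1 Pol II lists had lower scores, with median -log10 q of 7.21 and 5.80 against 14.0 and 15.5 in parental lists, and the part of this in the losses was not tested.

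Among the H3K4me3 losses, CYB561A3/TMEM138, ALG3/EEF1AKMT4 and ATG12/AP3S1 had the best parental ranks, but SAP30-KO1 summits lay at most 451 bp outside each of these regions. At HCFC1/TMEM187, with a chromatin subunit of COMPASS, parental H3K4me3 ranked at 27.7% and 28.7% and the nearest SAP30-KO1 summits lay 583 and 570 bp outside. KCTD19/LRRC36, chosen after its values were seen, was lost from both the H3K4me3 and the H3K9Ac lists, with parental ranks of 64.4% and 66.1% for H3K4me3 and 60.3% and 75.7% for H3K9Ac and the nearest H3K4me3 summits of the SAP30-KO1 libraries 47080 and 46624 bp outside. At MRPL36/NDUFS6, a mitochondrial ribosomal protein and a complex I subunit, H3K9Ac ranked at 6.63% and 7.98% in parental cells and the nearest SAP30-KO1 summits lay 1318 and 1311 bp outside. The other named H3K9Ac losses, CLIC1/MSH5 and DDX31/GTF3C4, had SAP30-KO1 summits at most 225 bp outside.

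Most named gains also had parental summits near the edge of the region, with the exception of STX10/IER2. The Pol II gain at GART/SON, with a purine synthesis and a splicing gene, had parental summits 107 and 175 bp outside its region. At STX10/IER2, where IER2 is an immediate early gene, they lay 775 and 2174 bp outside. ATP5PF/GABPA, with an ATP synthase subunit and an ETS transcription factor, gained both Pol II and H3K4me3, with parental summits 162 and 114 bp and 52 and 27 bp outside. The H3K4me3 gains at SRSF2/MFSD11 and ACVR1/UPP2 and the H3K9Ac gains at POLR2L/TSPAN4, HPS5/GTF2H1 and IFT80/SMC4 had parental summits at most 160 bp outside.

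Ranks were compared among promoters with a summit in all 4 libraries of a mark, pairs and single promoters being ranked together from 0 to 100 in each library. The median Pol II rank of 1039 pairs was 46.5 and 46.0 in parental and 49.4 and 49.1 in SAP30-KO1 libraries, a shift of 3.01 rank points toward the lower end. The libraries did not overlap, the shift was 1.20 points without replicate 2, and p = 0.333, the smallest that an exact permutation test of 2 against 2 allows. The change per pair was smaller, with a median of 0.903 points and quartiles of -8.38 and 11.6. Single promoters moved from 50.7 and 50.7 to 49.4 and 50.2. H3K9Ac moved the same way by 1.48 points at 931 pairs (p = 0.333, exact permutation test), but by -0.599 points with 250 bp beyond each start, and H3K4me3 moved by -1.15 points at 954 pairs with overlapping libraries (p = 1, exact permutation test). Pol II ranks of 219 pairs (21.1%) lay lower in both SAP30-KO1 libraries than in both parental libraries, and 178 (17.1%) lay higher, where the shares over all promoters ranked were 19.9% and 20.2%. For H3K4me3 176 and 172 pairs did so (18.4% and 18.0%, against 20.2% and 18.3%), and for H3K9Ac 176 and 152 (18.9% and 16.3%, against 18.9% and 18.9%).

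Pairs were picked by the size of their shift among those whose genotypes did not overlap, 3 in each direction for Pol II and the first in each direction for H3K4me3 and H3K9Ac, and are given here by their ranks in the full lists. Pol II ranks at CHTF8/UTP4 went from 2.55% and 2.36% in parental to 23.4% and 34.2% in SAP30-KO1 libraries, and those at CCT3/TSACC, with a chaperonin subunit, from 14.5% and 6.99% to 28.8% and 59.3%. NMRAL1/HMOX2, with heme oxygenase 2, went from 16.1% and 15.0% to 35.1% and 85.7%. In the other direction, Pol II at CETN2/NSDHL went from 58.3% and 42.2% to 22.7% and 13.0%. Pol II at WDR87/SIPA1L3 went from 47.9% and 48.4% to 6.91% and 20.9%, and at IDH3G/SSR4 from 48.8% and 42.4% to 21.4% and 7.30%. H3K4me3 at RPUSD4/FAM118B went from 6.44% and 12.9% to 38.7% and 35.0%, and at NDUFA8/MORN5, with a complex I subunit, from 32.9% and 30.5% to 2.52% and 3.15%. H3K9Ac at THYN1/ACAD8 went from 11.5% and 5.43% to 21.9% and 24.2%. H3K9Ac at CRYZL1/ITSN1 went from 31.7% and 22.2% to 11.0% and 6.94%. These pairs were picked for their shifts, and their ranges do not overlap by the way they were picked.

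Pol II regions split into more summits in SAP30-KO1 cells. Of pairs with a Pol II summit, 15.6% and 9.54% held more than 1 in parental libraries and 39.0% and 43.6% in SAP30-KO1 libraries, a difference of 28.7 points with no overlap (p = 0.333, exact permutation test, the smallest possible). Among 1039 pairs with Pol II in all 4 libraries, 169 (16.3%) went from 1 summit in both parental libraries to more in both SAP30-KO1 libraries, and 6 went the other way. Of 6576 such single promoters 617 (9.38%) did so and 24 went the other way. At pairs with starts 201 to 300 bp apart, summits on both sides of the midpoint were found at 17.5% and 10.5% in parental and at 54.3% and 52.5% in SAP30-KO1 libraries. The same held beyond pairs. At single promoters the shares with more than 1 summit were 7.61% and 6.11% in parental and 24.0% and 29.4% in SAP30-KO1 libraries, and over whole Pol II lists 10.7% and 9.63% of summits in parental and 30.8% and 37.8% in SAP30-KO1 lists lay within 500 bp of another. The lower scores of the SAP30-KO1 Pol II lists moved with this, and their part in it was not tested. For H3K4me3 the pair values were 14.7% and 7.05% in parental and 12.9% and 20.5% in SAP30-KO1 libraries, and for H3K9Ac 27.3% and 30.2% and then 31.5% and 22.9%, which overlap. With all lists cut to the shortest length the Pol II difference was 14.5 points.

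**Figure D5:**
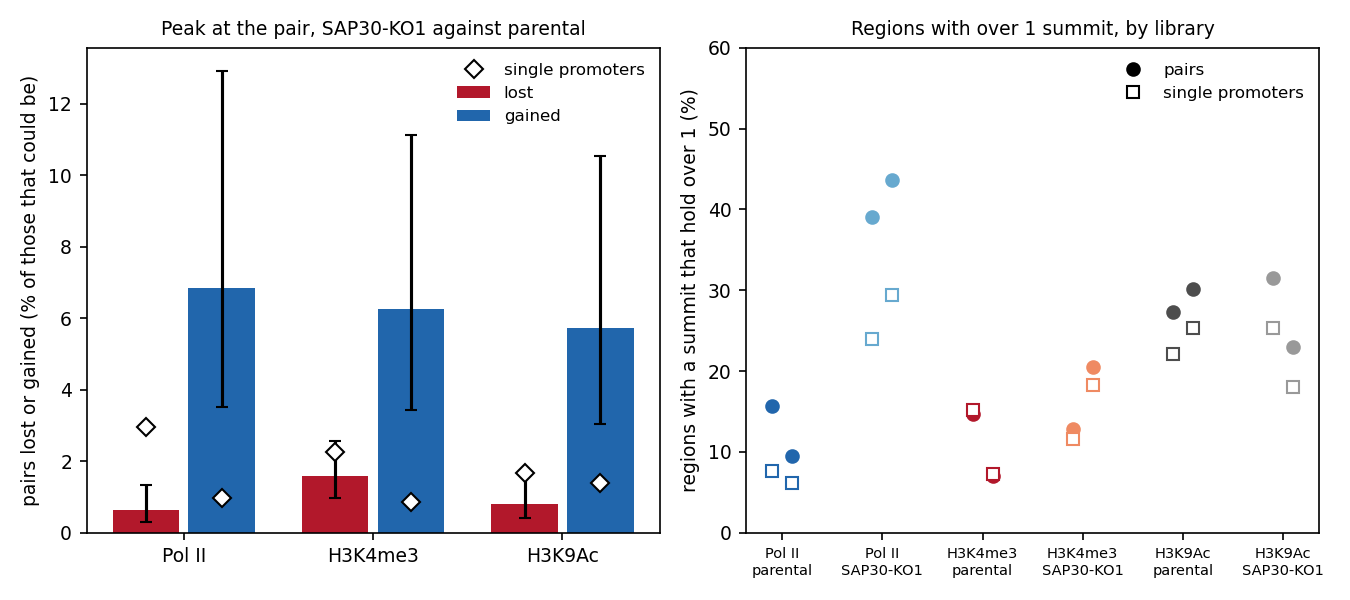
Left, percent of pairs (y axis) that lost a summit in SAP30-KO1 cells, of those with one in both parental libraries, or gained one, of those with none in either, for each mark (x axis), with 95% Wilson intervals for counting error, and open diamonds for single promoters. Right, percent of regions with a summit that hold more than 1 (y axis) in each library by group (x axis), filled circles for pairs and open squares for single promoters, where the Pol II pairs rise from 15.6% and 9.54% in parental to 39.0% and 43.6% in SAP30-KO1 libraries.

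No H3K4me3 library of either genotype had a summit at 126 pairs (10.2%), of which 36 had Pol II and 26 SAP30 in both parental libraries. At 68 pairs no H3K4me3 summit lay within 2000 bp of the starts, and none of these had a summit of SAP30, SIN3A, SIN3B, Pol II or H3K9Ac in both libraries of any group. The 3 of the 126 with the closest starts were SP110/SP140, DYDC1/DYDC2 and PLCZ1/CAPZA3, with starts 1, 13 and 19 bp apart, and none of them had a summit in any of the 18 libraries. PLCZ1 is a sperm phospholipase and SP140 is a nuclear body protein of leukocytes. The 126 pairs had a median observed to expected CpG of 0.670, against 0.787 at pairs with H3K4me3.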

How the data were processed

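Peak lists from ChIP-Seq of the MDA-MB-231 line were used, 18 lists in 9 groups of 2. The deposited lists hold 1 summit of 1 bp per MACS2 peak with its -log10 q-value, as the authors' MACS2 runs gave it. The submitters' processing notes name FastQC 0.11.2, Bowtie2 2.3.3.1, Picard and MACS2 2.1.0, and coordinates are GRCh37 (hg19). The lowest score was 1.302, the -log10 of the q threshold of 0.05. Peaks were called per library, and read depth is not given in the sources used here, so list length sets how many promoters can carry a summit. No authors' column was left unused (0 columns).

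A promoter was counted once if any summit lay in its region, and the best-scored summit gave its position and rank. Starts came from basic transcripts of GENCODE 44 on GRCh37. The 64 summits on chromosomes Y and M lay outside the promoters considered. CpG ratios used 1001 bp and motifs 301 bp. Sequences and motifs were read from the GRCh37 reference. Differences between pairs and single promoters were tested per group by an exact two-sided sign-flip permutation test over 2 libraries (smallest p 0.5), and SAP30-KO1 was compared with parental cells by an exact two-sided permutation test of 2 against 2 (smallest p 0.333). Lost and gained pairs were counted without a test. Promoters are not replicates, and Wilson intervals cover counting error only.

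Members and gene lists were chosen with earlier results of these data known. Named pairs are textbook divergent pairs, pairs with SIN3 or COMPASS genes, the 3 best ranked pairs of each SIN3 protein, at most 3 lost, 3 gained and 3 most shifted pairs in each direction per mark, and the 3 closest pairs without H3K4me3. Python 3.11.15, numpy 2.4.6, pandas 2.3.3, scipy 1.17.1, statsmodels 0.14.6, pysam 0.24.0 and matplotlib 3.10.9 were used. The counting of lost pairs was tested on simulated data, where 200 of 200 planted losses among 1238 pairs were recovered with 0 false gains. The simulated replicates had summits at the same pairs, and all of these lay inside the regions. The simulation thus checks the counting alone and says nothing of how reliable real losses or gains are. Alternatives changed the distance limit (500 bp), the extension (250 or 1000 bp), the part of the lists used, the choice of start, the single promoters, the CpG weighting and the replicates. Some named pairs are not reported here.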

Additional observations from a re-analysis of the deposited data

Results flagged for a closer look

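In 9 groups the share of best summits between the starts was compared between pairs and single promoters, and the direction differed between groups. The difference was negative in every library for SAP30 (-1.53 points on average), Pol II in parental cells (-1.51) and Pol II in SAP30-KO1 cells (-2.06). It was positive in every library for SIN3A (2.49 points), SIN3B (4.77), H3K4me3 in parental (0.633) and SAP30-KO1 cells (0.828), and H3K9Ac before (0.842) and after knockout (1.24). With starts at most 500 bp apart the differences of H3K4me3 and H3K9Ac turned negative in both genotypes (-0.326 and -0.229, -0.462 and -0.332 points). Single promoters had a stretch of fixed length (136 bp) and pairs had stretches of varied length, and the part of this in the differences was not tested. The difference between groups itself was not tested. With 2 replicates per group no group was large enough for a search for outlying libraries.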

How the results depend on the processing

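Over 42 results and 456 alternative values, 402 kept the direction of the reported value and, for counts, stayed within 1.5 times of it, 24 turned direction and 30 counts moved by more than 1.5 times. The 402 include values with the replicate number as a block, which equal the reported ones by construction. The share of promoters with a peak was higher at pairs in all 124 alternatives, by 6.30 to 44.2 points for SAP30, 23.9 to 45.3 for SIN3A, 16.9 to 49.8 for SIN3B, 8.34 to 46.3 for parental Pol II, 15.4 to 41.3 for parental H3K4me3 and 4.63 to 41.0 for parental H3K9Ac. Among promoters with H3K4me3 it was lowest for H3K9Ac (4.63 parental and 4.24 points in SAP30-KO1 cells), and with single promoters weighted by CpG class the H3K4me3 difference in SAP30-KO1 cells fell from 36.8 to 15.8 points. The replicate numbers are the submitters' and nothing says that equal numbers share a culture. With the replicate number as a block the differences were the same by construction (Pol II share -0.404 points, exact permutation p = 1, and Pol II pairs with over 1 summit 28.7 points, exact permutation p = 0.5, the smallest possible), and the block changed no call.

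With the best 50% of each list the Pol II rank difference in SAP30-KO1 cells turned to 1.04, and with equal list lengths to 1.11, as did the H3K9Ac one (0.156). Equal list lengths turned the SAP30 between-starts difference to 0.0760 points. With starts at most 500 bp apart the between-starts differences turned to -0.326 (H3K4me3 parental), -0.229 (H3K4me3 SAP30-KO1), -0.462 (H3K9Ac parental) and -0.332 points (H3K9Ac SAP30-KO1), and with outermost starts to -0.140 for H3K4me3 parental. The share differences between SAP30-KO1 and parental cells turned to 1.86 (Pol II) and 1.41 points (H3K4me3) with 250 bp beyond each start, to 0.121 (H3K4me3) and 1.21 (H3K9Ac) with equal lists, and for H3K9Ac to 0 with 1000 bp, 0.112 with outermost starts and 0.268 with starts at most 500 bp apart. The rank changes turned to 0.370 (H3K4me3) and -0.599 (H3K9Ac) with 250 bp. The cause was not tested.

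Leaving out 1 replicate number at a time gave SAP30-KO1 minus parental ranges of -1.21 to 0.404 points (Pol II share), -1.70 to 1.21 (H3K4me3 share), -0.969 to 0.889 (H3K9Ac share), -4.54 to 2.64 rank points (H3K4me3), -1.84 to 13.4 points (H3K4me3 pairs with over 1 summit) and -7.23 to 4.14 (H3K9Ac pairs with over 1 summit). With 1 library per genotype 21 to 40 pairs lost and 25 to 26 gained Pol II, 41 to 60 lost and 39 to 56 gained H3K4me3, and 50 lost and 38 to 61 gained H3K9Ac.

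Lost and gained counts depended most on the settings. With 250 bp beyond each start 11 pairs lost and 27 gained Pol II, 25 lost and 21 gained H3K4me3, and 32 lost and 28 gained H3K9Ac. With 1000 bp 1 gained Pol II, 8 lost and 2 gained H3K4me3, and 4 lost and 3 gained H3K9Ac. With equal lists 25 lost Pol II, 16 gained H3K4me3, and 15 lost and 22 gained H3K9Ac. With the best 50% of lists 21 lost Pol II, and with outermost starts 5 gained Pol II and 6 gained H3K4me3. Read depth is unknown, so the limit it sets on these counts could not be measured.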
